A study of Homo sapiens with 8 samples.

Results

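A172 cells, an established human glioblastoma line, that carried an inducible shRNA against HDAC2 (shHDAC2) were compared with A172 cells that carried a control shRNA (shControl), both kept without the inducer doxycycline (DOX(-)). The comparison rests on 4 of the 8 arrays of the series, 2 per construct, taken by sample title and treatment field. The other 4 arrays are labelled as shHDAC2 and shControl cells with doxycycline (DOX(+)), again 2 per construct. All arrays are Affymetrix Human Gene 2.0 ST arrays of total RNA, and the authors deposited 1 log2 signal for each transcript cluster, a set of probes to 1 transcript region. Of the 53617 clusters, 16098 have exactly 1 gene symbol, and these give 14884 genes, all of which were tested.

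Both constructs sit in a lentiviral vector whose shRNA is transcribed when doxycycline is added, and the titles mark all 4 arrays compared as without it. The treatment protocol given for every sample of the series nevertheless mentions doxycycline, those titled DOX(-) included, and the titles and the treatment field were followed. The cells were made as stable lines, and the sources name no single-cell clones. A further label field names the control virus for both shHDAC2 DOX(-) arrays and the HDAC2 virus for both shControl DOX(+) arrays. The groups follow title and treatment, and these 2 fields do not conflict on any array. The titles call the replicates biological and say no more of their origin, so the p-values measure the spread between these arrays, and no batch is named. The construct cannot be told apart from anything else in which the stable lines differ. In such bulk RNA, fewer cells of a type and less RNA per cell cannot be told apart either.

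HDAC2 is a class I histone deacetylase, an enzyme that removes acetyl groups from histone tails. It has no DNA-binding domain of its own and reaches genes as a subunit of the NuRD, CoREST and SIN3 corepressor complexes. In glioblastoma it is studied because deacetylase inhibitors slow the growth of these cells. HDAC1, its closest relative, sits in the same complexes.

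The targeted gene was read first. HDAC2 had log2 signals of 5.69 and 5.80 for shHDAC2 DOX(-), against 6.42 and 6.30 for shControl DOX(-). The 2 groups did not overlap, and the log2 difference was -0.61 (standard error 0.142, limma adjusted p = 0.00917), which is 1.53-fold lower in shHDAC2 cells without the inducer. With doxycycline HDAC2 had log2 signals of 4.95 and 5.34 in the shHDAC2 arrays and of 6.14 and 6.15 in the shControl arrays, and it was lower by 1.00 on the log2 scale in shHDAC2 than in shControl cells there (limma adjusted p = 0.00724). The differences without and with doxycycline were not shown to differ (limma adjusted p = 0.234). The call without doxycycline was lost when shControl replicate 1 was left out (-0.55, adjusted p = 0.0627) or shHDAC2 replicate 1 was left out (-0.56, adjusted p = 0.0526). A second cluster of HDAC2, of low signal (mean 2.35), differed by 0.10 (adjusted p = 0.685). Of the other class I deacetylases HDAC1 differed by 0.29, HDAC3 by 0.04 and HDAC8 by -0.17, and none of these passed the test. Of 14 measured subunits of the complexes that hold HDAC2, 3 were higher (21.4%, against 14.2% of all genes) and 6 lower (42.9%, against 17.2%). Among them the CoREST proteins RCOR3 (-1.16) and RCOR1 (0.97) moved in opposite directions, and of the NuRD subunits MBD2, which binds methylated DNA, was higher (1.04) and GATAD2B lower (-0.76).

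Across the genome the shHDAC2 and shControl cells without doxycycline differed in 4670 of 14884 genes (31.4%) at a limma adjusted p under 0.05. Of these 2110 were higher (14.2% of genes tested) and 2560 lower (17.2%) in shHDAC2 cells, a balance that turned to 2337 higher and 2318 lower after a second quantile normalization. The median difference of all genes was 0.020 on the log2 scale, and the quartiles were -0.25 and 0.24. A difference of over 1 log2 unit was called in 1365 genes, 618 higher and 747 lower, and one of over 4 log2 units in 30 higher and 24 lower genes. Replicates of a construct differed by a median of 0.146 in the shHDAC2 pair and 0.134 in the shControl pair. In 733 of the called genes the lower group mean lay under 3.658, the median signal of all clusters, where the arrays resolve differences poorly and the size of a difference is uncertain.

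The shHDAC2 DOX(-) pair was set apart from the other 6 arrays and not only from its shControl counterpart. Its Pearson correlations over all clusters with the shControl DOX(-) arrays were 0.9517 to 0.9538, against 0.9855 within the pair and 0.9878 within the shControl DOX(-) pair. With the shHDAC2 DOX(+) arrays, which carry the same construct by label, the correlations were 0.95 to 0.9521, whereas those shHDAC2 DOX(+) arrays correlated at 0.982 to 0.9857 with the 4 shControl arrays. Whether all arrays come from 1 stock of A172 cells is not stated in the labels and was not tested. Both shHDAC2 DOX(-) arrays lay above the range of all 6 others in 3026 genes (20.3%) and below it in 3084 (20.7%). Of the 4670 called genes, 4269 were outside that range, 1975 above and 2294 below. Without regard to a test, the pairs did not overlap in 4713 genes with shHDAC2 DOX(-) higher (31.7%) and in 4592 with it lower (30.9%). The first principal component carried 57.4% of the variance over all clusters. On it the shHDAC2 DOX(-) arrays scored 98.7 and 98.6 and the 6 others -35.1 to -28.2.

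Fewer genes differed between the constructs on doxycycline. There 629 genes (4.23%) differed between shHDAC2 and shControl cells, 131 higher (0.88%) and 498 lower (3.35%). The difference of the differences passed the test in 3098 genes (20.8%), of which 1586 (10.7%) had the higher and 1512 (10.2%) the lower value without doxycycline. It passed in the same direction for 2754 of the 4670 genes called without doxycycline. Of 322 genes that were called and differed by over 2 log2 units without doxycycline, 11 differed by over 1 log2 unit with it. Among all 14884 genes 99 differed by over 1 log2 unit with doxycycline. Among the genes called in both comparisons, 259 of 401 had the same direction.

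**Figure D1:**
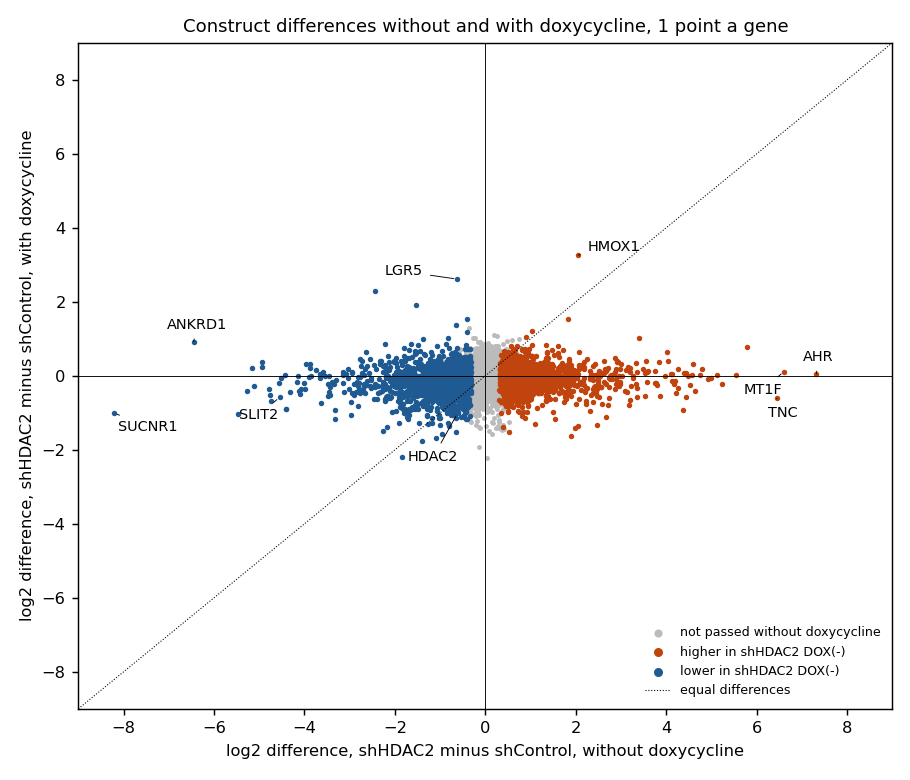
Log2 difference of each gene between shHDAC2 and shControl cells without doxycycline (x axis) and with doxycycline (y axis), 1 point per gene, 2 arrays per group, coloured by the limma call without doxycycline. The called genes spread along the x axis from SUCNR1 (-8.22) to AHR (7.32) and lie close to 0 on the y axis, with HMOX1 and LGR5 among the exceptions.

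The largest rise belonged to AHR, the aryl hydrocarbon receptor, a ligand-activated transcription factor that senses dioxins and tryptophan metabolites. Its log2 signals read 9.95 and 10.01 for shHDAC2 DOX(-), against 2.65 and 2.65 for shControl DOX(-). The difference was 7.32 (standard error 0.106, limma adjusted p = 2.25e-09), and it was 0.05 on doxycycline. The shHDAC2 DOX(-) arrays were thus the only ones of the 8 with a signal of AHR above the median of all clusters. Of the 2 other measured genes of its pathway, TIPARP, an ADP-ribosyltransferase that AHR induces and that restrains it, was higher by 1.35. ARNT, the partner with which AHR binds DNA, differed by -0.18 and did not pass the test.

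The largest fall belonged to SUCNR1, the G protein-coupled receptor for succinate. Its log2 signals read 2.23 and 2.33 for shHDAC2 DOX(-), against 10.64 and 10.36 for shControl DOX(-), a difference of -8.22 (standard error 0.144, limma adjusted p = 4.76e-09). With both constructs on doxycycline, SUCNR1 had log2 signals of 9.69 and 9.62 in shHDAC2 cells, against 10.81 and 10.49 in shControl cells, so it was high in both and lower by 1.00 in shHDAC2 cells. ANKRD1, a muscle ankyrin repeat protein and a target of the coactivator YAP, had signals of 2.87 and 3.14 for shHDAC2 DOX(-), against 9.59 and 9.32 for shControl DOX(-). Its difference was -6.45 without and 0.92 with doxycycline, and both passed the test.

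SLIT2, a secreted axon guidance cue that repels through ROBO receptors, had log2 signals of 3.77 and 3.74 for shHDAC2 DOX(-), against 8.33 and 8.27 for shControl DOX(-). The difference was -4.55 (standard error 0.108, limma adjusted p = 2.02e-08). The differences of its paralogs SLIT1 (-0.21) and SLIT3 (0.23) did not pass the test. Of 25 measured axon guidance receptors 7 were higher (28%, against 14.2% of all genes) and 8 lower (32%, against 17.2%). The netrin receptor DCC (2.64) and the semaphorin receptor NRP2 (2.46) were higher, whereas UNC5C (-2.90), which also binds netrins, the plexin PLXND1 (-2.70) and the ephrin receptor EPHB4 (-2.66) were lower. EFNB2, a ligand of EPHB4, was higher by 2.18.

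The 15 largest rises and the 15 largest falls among genes whose arrays did not overlap held secreted and surface proteins on both sides. On the higher side stood TNC, the matrix protein tenascin C (6.44), CXCL8, the neutrophil chemokine interleukin-8 (5.79), the EGF receptor ligand EREG (5.53) and the BMP antagonist GREM1 (5.23). They were followed by C1orf94 (5.13), UGT8 (4.99), which makes galactosylceramide, and TFPI2 (4.80), a serine protease inhibitor. NDP, the Norrin ligand of the Wnt receptor FZD4 (4.75), the metalloprotease ADAM12 (4.63), TSPAN6 (4.58), the chromatin protein HMGA2 (4.57) and PALMD (4.53) completed that side with the metallothioneins described below. On the lower side stood the basement membrane protein NID1 (-5.46), the transcription factors NFE2L3 (-5.27), MKX (-5.12) and TOX (-4.43), and LRRC17 (-5.17). Others were the adhesion receptor ADGRG6 (-4.95), the caveolar coat protein CAVIN2 (-4.93), the desmosomal plakophilin PKP2 (-4.78), the annexin ANXA3 (-4.73) and UNC13D (-4.57), which primes secretory granules. All 30 lay outside the range of the other 6 arrays, and for all 30 the difference without doxycycline differed from that with it by limma. The 30 were chosen by their difference without doxycycline, which enters both counts, so these counts follow in part from the choice. On doxycycline 4 of the 30 were called, SUCNR1, ANKRD1, NID1 and SLIT2, beside 4.23% of all genes.

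**Figure D2:**
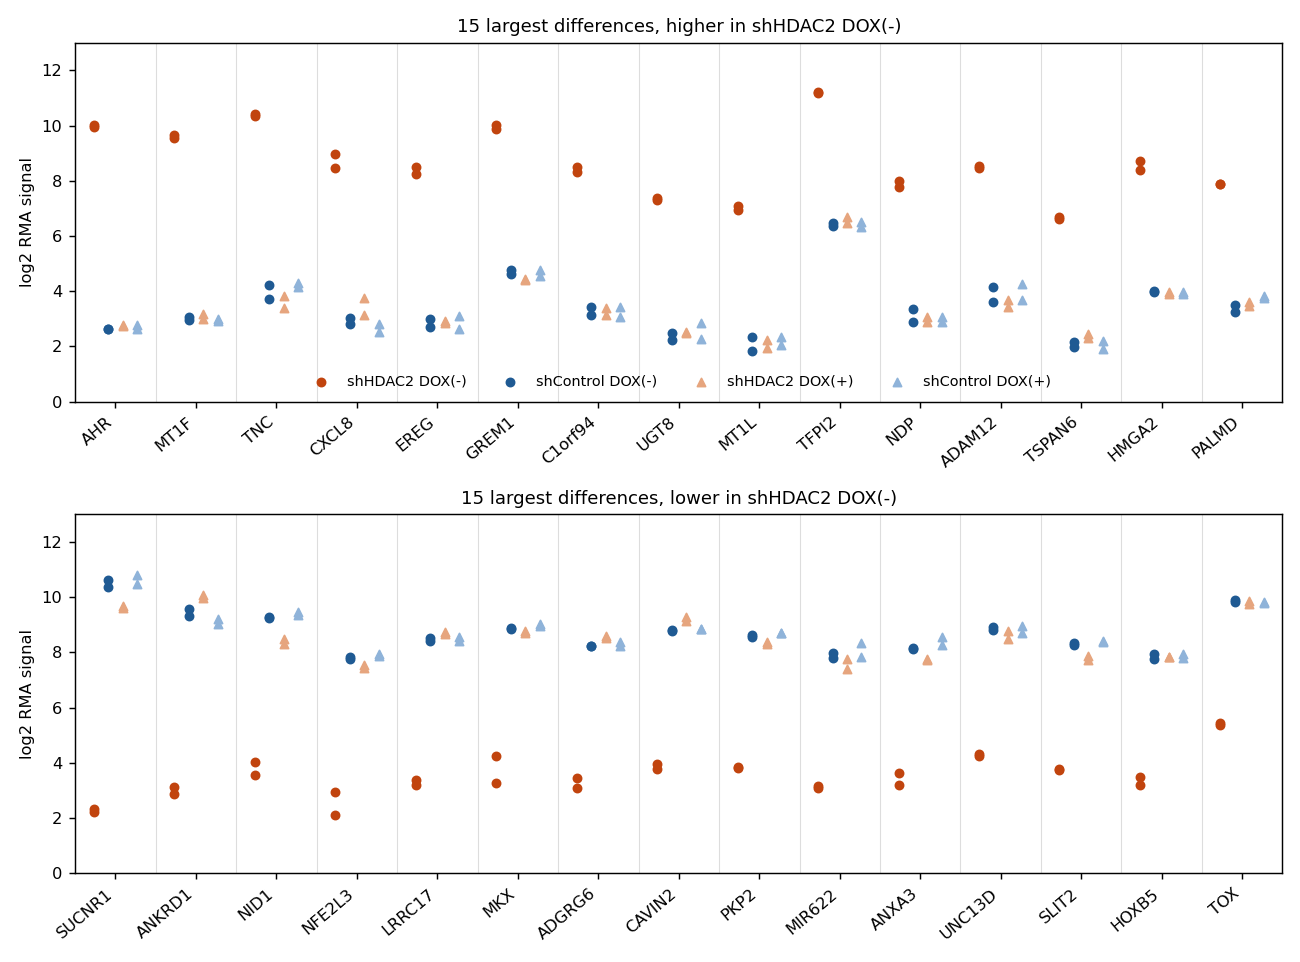
Log2 signals of the 15 genes with the largest rise (upper panel) and the 15 with the largest fall (lower panel) in shHDAC2 DOX(-) against shControl DOX(-), 1 point per array for all 8 arrays. In each column the 2 shHDAC2 DOX(-) points stand outside the range of the other 6, and the group means differ by at least 4.43 log2 units in size, while the DOX(+) points of both constructs lie closer to shControl DOX(-).

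Metallothioneins are small cysteine-rich proteins that bind zinc and copper, and they are induced by metals through the factor MTF1. Of 11 measured metallothionein genes 6 were higher (54.5%, against 14.2% of all genes) and 0 lower, with a median difference of 0.63 against 0.02 for all genes. MT1F had log2 signals of 9.66 and 9.56 for shHDAC2 DOX(-), against 2.95 and 3.05 for shControl DOX(-), a difference of 6.60 (standard error 0.118, limma adjusted p = 4.76e-09). MT1L was higher by 4.92, MT1X by 2.41, MT1E by 1.77, MT1G by 0.74 and MT2A by 0.59. MT1G had means under 3.658 in both groups, where the arrays resolve differences poorly. The differences of MT3 (0.63), MT1M (0.53) and MT1B (0.19) did not pass the test. These genes lie side by side on chromosome 16 and are close in sequence, so a probe of 1 can take signal from another. MTF1 itself was higher by 1.00.

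The metal response element is the site of MTF1, written here as TGCACNC or TGCGCNC and searched on both strands of the 250 bases before the RefSeq start (GRCh38.p14). It is shown because MT1X rose while MT1H, its neighbour, stayed near the bottom of the scale in all 4 arrays. Of 11 measured metallothionein genes 5 have a promoter entry, and all 5 hold a match, against 24.8% of 35116 promoters. The windows of 40 bases below hold the matches in capitals.
MT1X (chr16:56682377-56682416, plus strand): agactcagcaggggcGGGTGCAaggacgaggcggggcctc
MT2A (chr16:56608515-56608554, plus strand): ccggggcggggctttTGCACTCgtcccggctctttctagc
MT1H (chr16:56669721-56669760, plus strand): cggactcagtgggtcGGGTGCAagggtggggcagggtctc
The promoter of MT1X held 4 matches, that of MT2A 7 and that of MT1H 8. MT1H had signals of 1.84 and 2.16 for shHDAC2 DOX(-), against 2.10 and 1.86 for shControl DOX(-). Of the 6 higher metallothionein genes only 2, MT1X and MT2A, have a promoter entry, and MT1F, MT1L and MT1E have none. Whether the number of matches goes with the difference was not tested.

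Genes that low oxygen induces through the HIF factors stood higher in the shHDAC2 cells. Of 20 measured hypoxia-inducible genes outside glycolysis 17 were higher (85%, against 14.2% of all genes) and 0 lower, with a median difference of 1.30. DDIT4, a stress protein that restrains mTORC1, had log2 signals of 9.56 and 9.39 for shHDAC2 DOX(-), against 5.23 and 5.29 for shControl DOX(-), a difference of 4.21 (limma adjusted p = 4.57e-08). VEGFA, the endothelial growth factor, had 8.79 and 8.95 for shHDAC2 DOX(-), against 5.36 and 5.35 for shControl DOX(-), a difference of 3.52. The stanniocalcin STC2 (4.03), NDRG1 (3.36), the mitophagy receptor BNIP3 (2.91) and the carbonic anhydrase CA12 (2.85) were higher too. On doxycycline the list had a median difference of 0.01, with 1 member higher and 1 lower, beside 0.88% and 3.35% of all genes. VEGFA was the lower one (-0.56, limma adjusted p = 0.0286). In 16 of the 20 genes the difference without doxycycline exceeded that with it by limma, against 10.7% of all genes.

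Glycolysis followed the same direction with smaller sizes. Of 9 measured genes of glycolytic enzymes and lactate dehydrogenases 6 were higher (66.7%, against 14.2% of all genes) and 0 lower. The median difference of the 9 was 0.90. HK2, the hexokinase induced in tumours, had log2 signals of 7.56 and 7.95 for shHDAC2 DOX(-), against 4.20 and 4.36 for shControl DOX(-), a difference of 3.48. TPI1 (1.31), PGK1 (1.28), GAPDH (0.94), LDHA (0.90), which makes lactate, and PGAM1 (0.88) were higher. GAPDH and PGK1 often serve as reference genes, and of 6 measured reference genes 3 were higher and 1, PPIA (-0.46), lower. The other 3 genes did not pass the test.

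The HIF core site ACGTG was searched on both strands of the same 250 bases, and it is shown for genes of both lists that were higher. A match to CACGTG, the E-box of MYC and its relatives, counts on both strands. Of 29 measured members 25 have a promoter entry and 14 of these hold a match (56%), against 18.5% of 35116 promoters. Among the 19 higher members with an entry, 10 hold one (52.6%). The capitals mark every match in the window.
DDIT4 (chr10:72273784-72273823, plus strand): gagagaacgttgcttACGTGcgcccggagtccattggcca
BNIP3 (chr10:131982033-131982072, minus strand): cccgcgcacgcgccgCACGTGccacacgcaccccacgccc
HK2 (chr2:74834064-74834103, plus strand): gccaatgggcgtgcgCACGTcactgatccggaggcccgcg
PGK1 (chrX:78104031-78104070, plus strand): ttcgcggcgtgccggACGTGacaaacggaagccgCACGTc
LDHA (chr11:18394461-18394500, plus strand): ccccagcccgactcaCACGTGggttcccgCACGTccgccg
The match of DDIT4 begins 125 bases before the start and that of BNIP3 134 bases before it, and only the match of BNIP3 of these 2 lies in an E-box. The lists hold known hypoxia targets, so the share with a match describes the lists only. A match is a match of letters, and no binding was measured here.

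Genes of growth factor and inflammatory signalling were the next group on the higher side. MAP kinase feedback inhibitors are induced by ERK activity and dampen it. Of 7 measured, 6 were higher (85.7%, against 14.2% of all genes) and 0 lower. SPRY2, a Sprouty protein, had log2 signals of 8.50 and 8.63 for shHDAC2 DOX(-), against 5.62 and 5.68 for shControl DOX(-), a difference of 2.92. The ERK phosphatase DUSP6 was higher by 2.12. Of 6 measured ligands of the EGF receptor family 5 were higher, EREG by 5.53, HBEGF by 1.03, NRG1 by 0.76, BTC by 0.50 and EPGN by 0.46. BTC and EPGN had means under 3.658 in both groups, where the arrays resolve differences poorly. EGF itself was lower (-0.68). The receptor EGFR was lower (-0.84).

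Of 14 measured inflammatory targets of NF-kB 9 were higher (64.3%, against 14.2% of all genes) and 0 lower, with a median of 0.90. CXCL8 had log2 signals of 8.97 and 8.47 for shHDAC2 DOX(-), against 3.04 and 2.81 for shControl DOX(-). PTGS2, the prostaglandin synthase COX-2, was higher by 3.60, the granulocyte factor CSF3 by 3.19, the adhesion molecule ICAM1 by 1.91 and the chemokine CXCL3 by 1.30. C3, the central complement protein, had signals of 8.86 and 8.88 for shHDAC2 DOX(-), against 4.40 and 4.60 for shControl DOX(-). It differed by 4.37 without and by -0.93 with doxycycline, and both passed the test. Interferon-stimulated genes did not share this direction, with 3 of 23 higher (13%, against 14.2% of all genes) and 7 lower (30.4%, against 17.2%). Among immediate early genes 9 of 18 were higher and 4 lower, with FOS (1.78), FOSL1 (1.37) and JUN (1.26) higher and KLF2 (-0.91) and EGR1 (-0.82) lower.

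Matrix genes moved in both directions. Of 19 measured matrix glycoproteins 8 were higher (42.1%, against 14.2% of all genes) and 4 lower (21.1%, against 17.2%). TNC had log2 signals of 10.43 and 10.36 for shHDAC2 DOX(-), against 4.21 and 3.71 for shControl DOX(-). The proteoglycan LUM (4.43), the fibronectin FN1 (3.79), the TGF-beta binding protein LTBP1 (3.36) and the second nidogen NID2 (2.86) were also higher. NID1 had signals of 4.04 and 3.55 for shHDAC2 DOX(-), against 9.27 and 9.25 for shControl DOX(-), so the 2 nidogens moved in opposite directions. The thrombospondins did as well, with THBS1 higher by 2.08 and THBS2 lower (-4.12). Of 17 matrix proteases and their inhibitors 10 were higher (58.8%) and 5 lower (29.4%), with ADAM12 (4.63), TIMP3 (3.18) and LOXL3 (2.02) against ADAM19 (-2.45).

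Secreted antagonists of BMP and Wnt signalling moved in both directions. GREM1 had log2 signals of 9.86 and 10.01 for shHDAC2 DOX(-), against 4.78 and 4.64 for shControl DOX(-), whereas NOG, the antagonist noggin, had 3.96 and 4.19 for shHDAC2 DOX(-), against 8.04 and 8.04 for shControl DOX(-). GREM1 differed by 5.23 and NOG by -3.97. The Wnt antagonists DKK1 (-3.88) and DKK3 (-3.15) were lower, as were the pseudoreceptor BAMBI (-2.01) and the Wnt receptor FZD2 (-2.11). The receptor FZD8 (1.59), the ubiquitin ligase RNF43 (1.44) and LEF1 (1.39), a nuclear effector, were higher. Over each list the calls were split. Of 14 TGF-beta and BMP genes 4 were higher (28.6%) and 5 lower (35.7%). Of 22 Wnt genes 5 were higher (22.7%) and 5 lower (22.7%). Among all genes 14.2% were higher and 17.2% lower.

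HOX genes encode homeodomain factors that fix position along the body axis and lie in 4 clusters, in each of which neighbours are often expressed together. Of 27 measured HOX genes 15 were lower (55.6%, against 17.2% of all genes) and 1 higher, with a median difference of -0.67. HOXB5 had log2 signals of 3.21 and 3.48 for shHDAC2 DOX(-), against 7.95 and 7.78 for shControl DOX(-), a difference of -4.52 (limma adjusted p = 4.48e-08). All 8 genes from HOXB2 to HOXB9 were lower, among them HOXB6 (-3.90), HOXB8 (-3.15), HOXB3 (-2.68) and HOXB9 (-2.22), while HOXB1 and HOXB13 at the ends of the cluster did not pass the test. HOXD10 (-2.15) was lower too, and HOXC8 (0.67) was the higher gene. Of 7 TALE homeobox cofactors, which bind DNA with HOX proteins, 4 were lower, among them MEIS2 (-1.73) and MEIS1 (-1.20). On doxycycline 0 of the 27 HOX genes passed the test, where only 4.23% of all genes did.

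Beta protocadherins are adhesion proteins of neural cells whose genes lie in tandem on chromosome 5. Of 15 measured, 9 were lower (60%, against 17.2% of all genes) and 1, PCDHB13 (0.92), higher, with a median of -1.15. PCDHB3 had log2 signals of 2.96 and 3.13 for shHDAC2 DOX(-), against 7.34 and 7.38 for shControl DOX(-), a difference of -4.32. PCDHB5 (-3.63), PCDHB9 (-2.08), PCDHB14 (-1.88) and PCDHB10 (-1.82) were lower as well. On doxycycline the median was -0.54, and 3 of the 15 were lower, against 3.35% of all genes. These genes are near-copies, so their signals may be shared between clusters of probes.

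**Figure D3:**
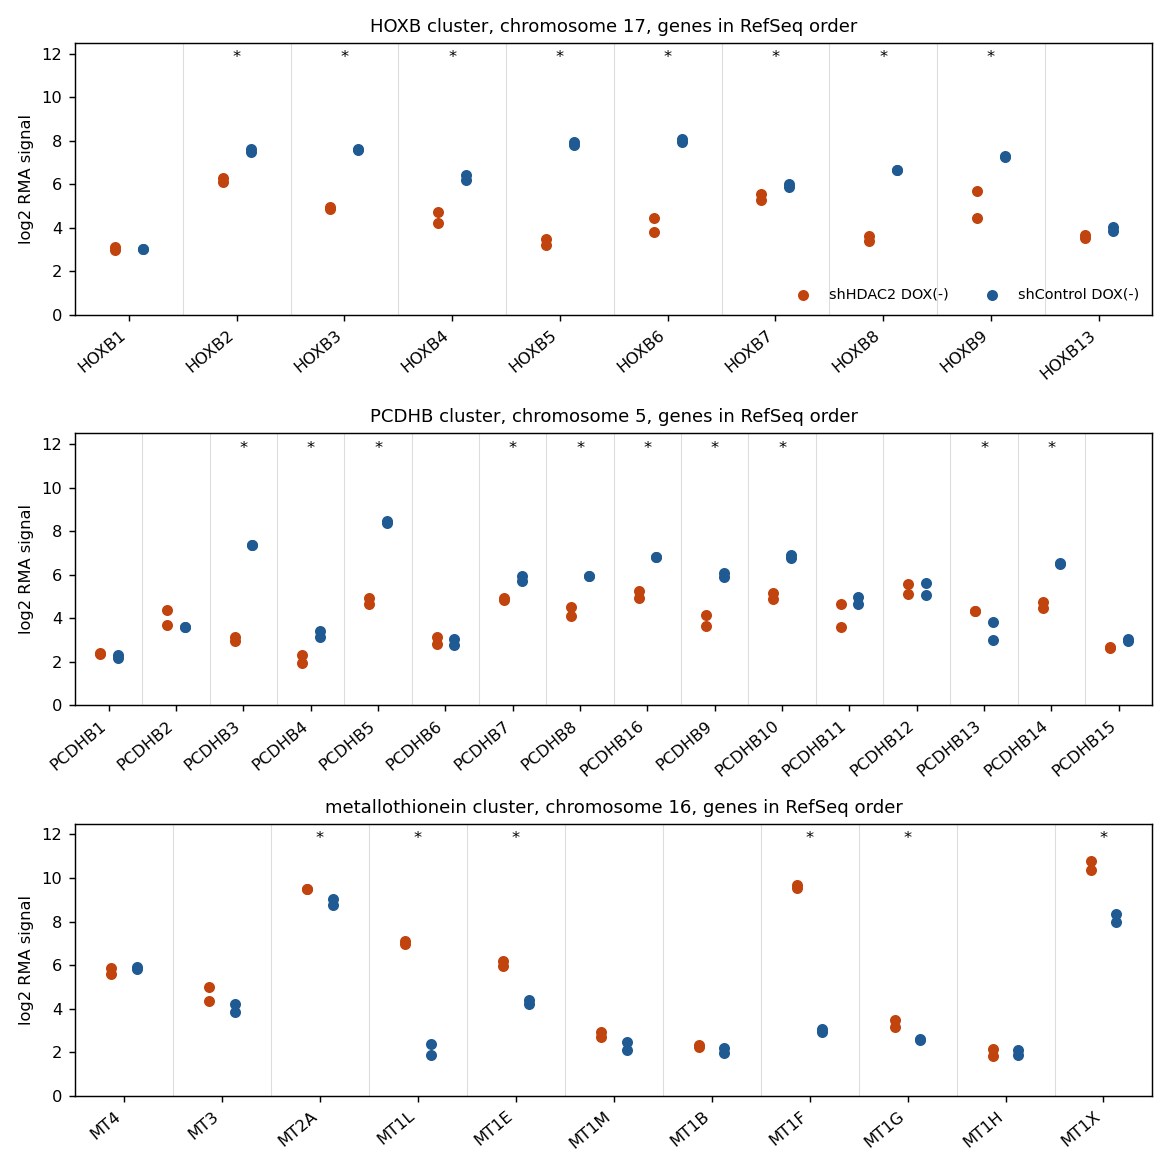
Log2 signals of the measured genes of the HOXB, PCDHB and metallothionein clusters in RefSeq order, 2 shHDAC2 DOX(-) arrays (left in each column) and 2 shControl DOX(-) arrays (right), with an asterisk where limma's adjusted p was under 0.05. HOXB2 to HOXB9 are all lower in shHDAC2 cells, most PCDHB genes are lower (PCDHB1, also drawn, is not on the list), and MT1L, MT1F and MT1X are higher with neighbours between them that did not pass the test.

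Receptors, growth factors and transcription factors that mark mesenchymal cells changed on both sides. Of 35 measured G protein-coupled receptors 9 were higher (25.7%, against 14.2% of all genes) and 12 lower (34.3%, against 17.2%). The oxytocin receptor OXTR had log2 signals of 4.87 and 5.01 for shHDAC2 DOX(-), against 8.35 and 8.39 for shControl DOX(-), a difference of -3.44. The adhesion receptors ADGRL2 (-2.32) and ADGRG2 (-2.17) were lower like ADGRG6, whereas ADGRG1 was higher (1.83). Of 16 ligands and receptors of the FGF, PDGF and related families 3 were higher and 6 lower, with HGF, the ligand of the MET receptor, at 2.43 and PDGFD at -2.38. Of 13 mesenchymal transcription factors 7 were higher (53.8%) and 3 lower (23.1%). TBX3, a T-box repressor, had log2 signals of 8.07 and 8.48 for shHDAC2 DOX(-), against 5.64 and 5.79 for shControl DOX(-). SNAI2, which represses E-cadherin, was higher by 2.42, and TWIST2 was lower (-1.46). Of 11 genes of the YAP pathway 5 were lower and 1, YAP1 itself (0.38), higher, and beside ANKRD1 the lower ones included CRIM1 (-1.76) and CCN2 (-0.43).

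Junction and keratin genes were lower. Desmosomes tie keratin filaments to the membrane. Of 14 measured desmosome and keratin genes 8 were lower (57.1%, against 17.2% of all genes) and 0 higher. PKP2 had log2 signals of 3.85 and 3.81 for shHDAC2 DOX(-), against 8.57 and 8.65 for shControl DOX(-). The simple epithelial keratin KRT18 had 6.28 and 6.24 for shHDAC2 DOX(-), against 10.44 and 10.30 for shControl DOX(-), and its other cluster differed by -2.53. The plaque proteins DSP (-3.99) and JUP (-3.40) were lower, as was DSG2 (-1.69). The keratin partner KRT8 was lower too (-1.32).

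Stress genes of the endoplasmic reticulum and of amino acid shortage mostly stood higher where they changed. Among all genes tested 14.2% were higher and 17.2% lower. Of 7 measured genes of the unfolded protein response 4 were higher and 0 lower, among them the factor XBP1 (1.10) and SEL1L (0.91), which helps to degrade misfolded proteins. Of 11 genes of the ATF4 response 6 were higher and 1, PSPH (-0.60), lower, with SESN2 (1.86), which restrains mTORC1, and VLDLR (2.05) in front. ATF3 was higher by 1.02 without and by 1.21 with doxycycline. Of 11 measured genes of tRNA synthetases 4 were higher (36.4%) and 2 lower (18.2%), with YARS1 at 0.85 and LARS1 at -0.84. Of 11 genes of the tricarboxylic acid cycle and its entry 2 were higher and 4 lower, with DLST at 1.13 and IDH3B at -0.98.

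Genes of lipid synthesis stood lower. Among all genes tested 17.2% were lower and 14.2% higher. Of 9 genes of fatty acid synthesis 5 were lower (55.6%) and 0 higher, with ACACA (-1.49), FADS2 (-1.24) and FASN (-1.22) at the front. Of 14 genes of cholesterol synthesis and uptake 7 were lower (50%) and 1 higher, INSIG1 (0.73), which holds back the pathway. HMGCS1, which makes the precursor of mevalonate, differed by -1.85. A list of 9 genes around NRF2, the factor of the oxidative stress response, held 5 lower genes and 1 higher. The list includes NFE2L2, which encodes NRF2 and did not pass the test (-0.32), and KEAP1, the inhibitor of NRF2, which is 1 of the 5 lower genes (-0.63). Of its targets SRXN1 was lower (-1.20), and HMOX1, heme oxygenase, was higher by 2.05. On doxycycline 5 of the 9 were higher in shHDAC2 cells and 0 lower, against 0.88% and 3.35% of all genes. SRXN1 changed sign there (0.64), whereas HMOX1 was higher in both comparisons (3.26 on doxycycline). LGR5, a receptor for R-spondins chosen here after its values were seen, also changed sign, with -0.62 without and 2.61 with doxycycline.

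Genes of mitosis and of replication were counted next. Of 24 mitotic genes 2 were higher (8.33%) and 6 lower (25%), with a median of -0.13, beside 14.2% higher and 17.2% lower among all genes and 16.9% and 23.8% among genes at or above the median signal. KIF14 (-1.34), a kinesin on chromosome 1, and PLK1 (0.98), a mitotic kinase, had the largest differences. Of 21 replication genes 5 were higher and 5 lower, with PCNA at -0.93. Among 14 p53 targets 2 were higher and 3 lower, a share near that of all genes. Of the apoptosis genes, APAF1, the scaffold of the apoptosome, was lower (-1.17) and PMAIP1, the BH3 protein NOXA, higher (1.35). The zinc finger genes named ZNF were lower in 157 of 471 (33.3%) and higher in 37 (7.86%), with a median of -0.21, led by ZNF347 (-2.98) and ZNF567 (-2.97) against ZNF215 (3.34) and ZNF22 (3.22). Cytosolic ribosomal protein genes were higher in 16 of 52 (30.8%) and lower in 3 (5.77%).

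**Figure D4:**
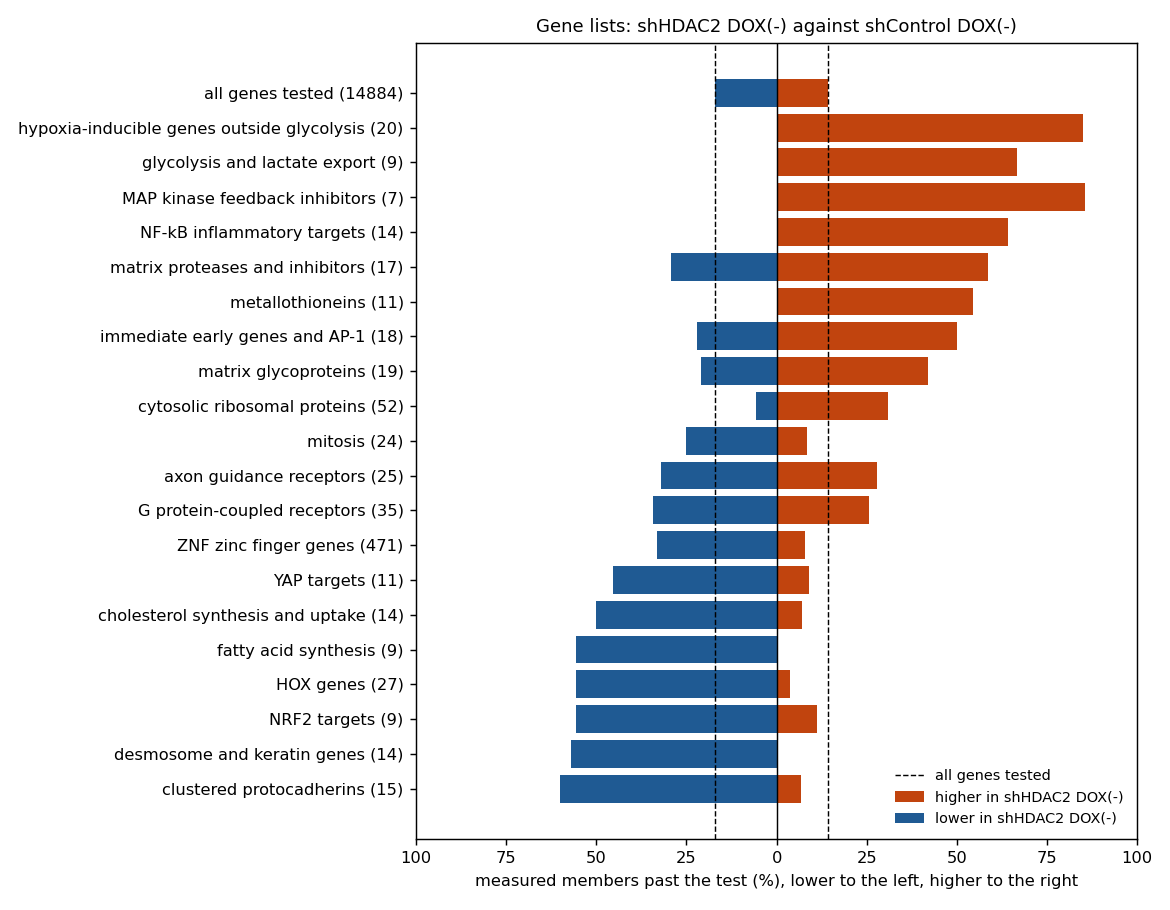
Share of the measured members of 20 gene lists that were higher (right) or lower (left) in shHDAC2 DOX(-) than in shControl DOX(-) at a limma adjusted p under 0.05, with the number measured in brackets and the shares of all 14884 genes tested as dashed lines (14.2% higher, 17.2% lower). Hypoxia-inducible genes (85% higher) and clustered protocadherins (60% lower) are among the lists with the largest shares, the bar named NRF2 targets includes NFE2L2 and KEAP1, and no lactate exporter was measured.

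Among 1067 microRNA genes measured 49 were higher (4.59%) and 55 lower (5.15%), under the shares of all genes (14.2% and 17.2%). Array probes lie on precursors, and mature microRNAs were not measured. The mature sequences of the 3 largest changes each way are shown from RefSeq with the seed, bases 2 to 8, in capitals, because the seed sets which transcripts a microRNA can pair with.
hsa-miR-622: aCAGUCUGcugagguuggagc
hsa-miR-196b-5p: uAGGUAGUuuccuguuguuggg
hsa-miR-924: aGAGUCUUgugaugucuugc
hsa-miR-29a-3p: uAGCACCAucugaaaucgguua
hsa-let-7a-5p: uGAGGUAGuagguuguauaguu
hsa-miR-604: aGGCUGCGgaauucaggac
No seed is shared among the 6. MIR622 had log2 signals of 3.11 and 3.15 for shHDAC2 DOX(-), against 7.98 and 7.80 for shControl DOX(-), a difference of -4.76. Whether the probes of this cluster take signal from other transcripts was not tested. MIR196B, which lies in the HOXA cluster on chromosome 7, had 2.88 and 2.89 for shHDAC2 DOX(-), against 6.33 and 6.36 for shControl DOX(-), a difference of -3.46. MIR924 differed by -2.47. On the higher side MIR29A differed by 1.55, MIRLET7A2 by 1.53 and MIR604 by 1.47, and all 6 passed the test. Of the long noncoding RNAs named LINC, 33 of 458 were higher (7.21%) and 26 lower (5.68%), also under the shares of all genes. They were led by LINC00667 (2.32) and LINC01139 (-3.46). HMGA2, a known target of let-7 with many sites, had log2 signals of 8.40 and 8.73 for shHDAC2 DOX(-) and was higher than in shControl DOX(-) by 4.57. IGF2BP1, another oncofetal let-7 target, had 4.25 and 4.18 for shHDAC2 DOX(-), against 8.40 and 8.30 for shControl DOX(-), so the pair went in opposite directions.

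Neighbouring genes leaned the same way over long stretches of chromosome. To describe this, the 10308 autosomal and X-linked genes with a mean signal at or above the median were put in RefSeq order and 10025 of them were cut into 401 blocks of 25. Block medians of the difference ran from -0.87 to 0.73 without doxycycline (SD 0.256) and from -0.31 to 0.18 with it (SD 0.083). Without doxycycline 28 blocks had a median beyond 0.5 in size, 9 above and 19 below, and with it 0 did. The lowest block, KITLG to BLTP3B on chromosome 12, held 16 lower and 4 higher genes, and the highest, TAPBPL to DSTNP2 on the same chromosome, held 17 higher and 2 lower. A block from SCARNA3 to TSEN15 on chromosome 1 held 19 lower genes of 25 with a median of -0.85, and one from RNF19B to ZC3H12A on that chromosome held 18 higher and 0 lower with a median of 0.63. These blocks were laid out after the pattern was seen, and no test was made of them.

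Whole chromosomes differed in the same sense. On chromosome 14, 118 of 311 such genes were higher (37.9%) and 25 lower (8.04%), with a median of 0.24. On chromosome 22, 80 of 266 were higher (30.1%) and 20 lower (7.52%), with a median of 0.21. On chromosome 5, 180 of 449 were lower (40.1%) and 50 higher (11.1%), with a median of -0.30, and on chromosome 2, 223 of 679 were lower (32.8%). Over all 10308 genes 16.9% were higher and 23.8% lower. On doxycycline the medians of these 4 chromosomes were -0.04, 0.02, -0.08 and -0.06 in the same order. DNA was not measured, and the part of gene position in the lists above was not tested.

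**Figure D5:**
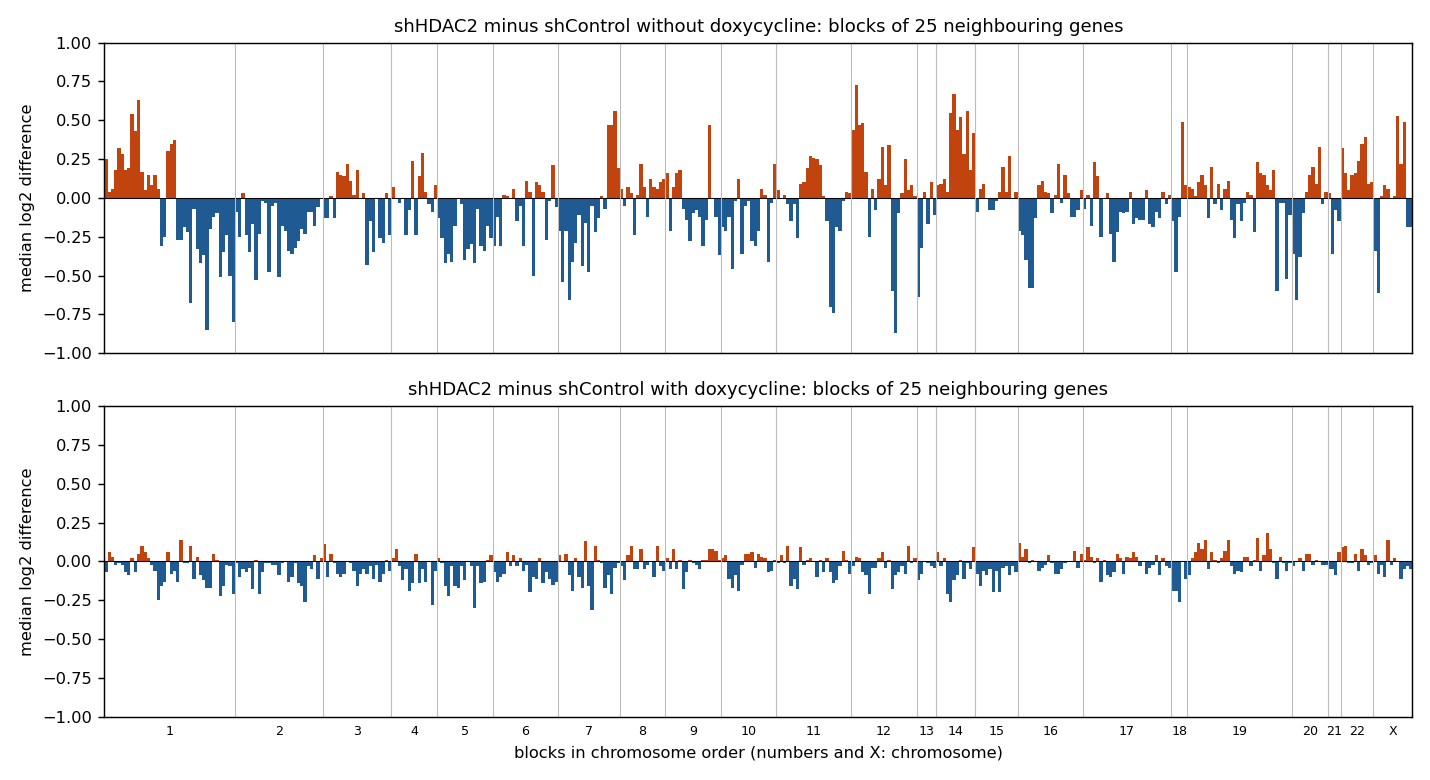
Median log2 difference between shHDAC2 and shControl cells in 401 blocks of 25 neighbouring genes in chromosome order, without doxycycline (upper panel) and with doxycycline (lower panel). Runs of blocks on 1 side of 0 appear without doxycycline, such as those above 0 on chromosome 14 and those below 0 on chromosomes 2 and 5, while with doxycycline all blocks stay between -0.31 and 0.18.

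A shorter stretch on chromosome 9, chosen after its values were seen, held changed genes beside others that did not pass the test. FOCAD, the gene of focadhesin, had log2 signals of 3.41 and 3.33 for shHDAC2 DOX(-), against 6.90 and 6.94 for shControl DOX(-), a difference of -3.55. KLHL9, an adaptor of a ubiquitin ligase, had 3.65 and 3.91 for shHDAC2 DOX(-), against 7.56 and 7.30 for shControl DOX(-), a difference of -3.65. Beyond KLHL9, past MIR31HG and MIR31, lie MTAP and the tumour suppressor CDKN2A, whose means stayed under 3.658 in both groups. RPS6, a ribosomal gene on the near side, had 7.07 and 6.98 for shHDAC2 DOX(-), against 7.10 and 7.04 for shControl DOX(-), and did not pass the test. On doxycycline FOCAD differed by -0.02 and KLHL9 by -0.05.

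The markers of cell identity were read for the tissue label. The astrocyte marker GFAP had mean log2 signals of 4.72 in shHDAC2 DOX(-) and 4.61 in shControl DOX(-) arrays, above the median signal of 3.658. S100B and AQP4 had means under 3.658 in both groups, as did 4 of the 11 astrocyte and radial glia markers in all. Of 11 measured astrocyte and radial glia markers 2 were higher (18.2%, against 14.2% of all genes), 2 lower (18.2%, against 17.2%) and 7 did not pass the test. The intermediate filament VIM (0.58), high in both groups, and the secreted protein CHI3L1 (1.74) were higher, and NES, the progenitor filament nestin (-2.29), and the transcription factor SOX9 (-0.45) were lower. Of 52 measured markers of 8 other cell types 5 were higher, 10 lower and 37 did not pass the test. The shares of all genes to set beside these counts are again 14.2% higher and 17.2% lower. The lysosomal protein CD68 (2.51), a macrophage marker that many tumour lines express, was the higher one of 4 leukocyte markers, and CD14 stayed under the median of all clusters in both groups. The mean of the leukocyte list was 5.78 and 5.67 for shHDAC2 DOX(-), against 4.92 and 5.03 for shControl DOX(-). Of 5 markers of kidney-derived packaging cells EYA1 (3.11) and PAX8 (1.39) were higher and WT1 (-0.93) and LHX1 (-0.64) lower, and the list's mean was 4.92 and 4.98 for shHDAC2 DOX(-), against 4.43 and 4.58 for shControl DOX(-). The part of other cell types in the results was not tested.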

How the data were processed

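Total RNA of A172 cells was hybridised to 8 arrays, 2 per group. The authors normalized the scans by RMA in Affymetrix Expression Console, as the submitters' processing notes name it, and deposited log2 signals, already background-corrected and quantile-normalized. No tool version is stated, and the build of the annotation was not given in the sources used here. RMA makes the arrays alike in their distribution, so a shift of most transcripts one way would not be seen, and low signals are compressed. Array medians were 3.638 to 3.676, and the number of arrays limits the precision.

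Clusters with exactly 1 symbol in the platform annotation were kept (16098 of 53617), and all were matched to RefSeq by gene identifier. Of 779 genes with several clusters, the cluster with the highest mean over the 8 arrays was used. On the deposited values, limma 3.58.1 (R 4.3.3) gave the differences, with 1 mean per group over 8 arrays, moderated variances (prior degrees of freedom 4.97, residual 4) and Benjamini-Hochberg adjustment over 14884 genes, two-sided, threshold 0.05. The rule for named genes took HDAC2, AHR, MT1F, SUCNR1 and SLIT2, the 15 largest rises and falls among called genes without overlap, up to 6 called members of each list with its first member, and 3 each way of each symbol class. NID2, THBS1, HOXB2, HOXC8, PCDHB13, SLIT1, SLIT3, LGR5, FOCAD, KLHL9 and the genes around them were named after their values were seen. Genes of 54 lists were measured, and those of 3 lists (collagens, integrins, classical cadherins) were not analysed here. The members and lists were chosen with earlier results of these data known. Sequences are from RefSeq (GRCh38.p14). The fit was tested on simulated data. The alternatives were the replicate block, leaving out each array, fewer or more arrays, low signals, every row, averaged clusters, other normalizations, variance models, the methods' t-test and a fold minimum of 1.5.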

Additional observations from a re-analysis of the deposited data

Results flagged for a closer look

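The difference between shHDAC2 and shControl cells differed between the cells without and those with doxycycline, by a test of the difference of the differences, in 1586 genes with the higher and 1512 with the lower value without doxycycline. All 30 genes with the largest differences are among them, but they were chosen by the difference without doxycycline, which is part of this test. On the log2 scale the difference without exceeded that with doxycycline by 7.27 for AHR, 7.05 for TNC and 6.49 for MT1F. It did so by 5.51 for EREG, 5.44 for GREM1, 5.11 for C1orf94, 5.05 for ADAM12, 5.04 for UGT8, 5.03 for CXCL8 and 5.03 for MT1L. The value was 4.78 for PALMD, 4.74 for NDP, 4.63 for TFPI2, 4.56 for HMGA2 and 4.27 for TSPAN6.

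Among the lower genes it was -7.37 for ANKRD1, whose difference is negative without and positive with doxycycline, and -7.22 for SUCNR1. It was -5.38 for LRRC17, -5.28 for CAVIN2, -5.19 for ADGRG6, -4.86 for NFE2L3, -4.85 for MKX and -4.48 for HOXB5. It was -4.44 for TOX, -4.43 for NID1, -4.42 for PKP2, -4.38 for UNC13D, -4.24 for MIR622, -4.06 for ANXA3 and -3.97 for SLIT2. Groups of 2 arrays were too small for a check of single arrays that stand apart.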

How the results depend on the processing

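The count of 4670 genes was 7636 (3306 higher, 4330 lower) over every row of the table, of which more were tested, 1216 (541 and 675) with a minimum of 1.5-fold and 218 (110 and 108) by the methods' t-test after Benjamini-Hochberg adjustment, against 4222 without adjustment. The difference of the differences passed in 874 genes with that minimum. Leaving out 1 array gave 3464 to 4593 genes (1584 to 2095 higher, 1880 to 2498 lower) and 2243 to 2714 for the difference of the differences. The HDAC2 difference was -0.68 to -0.55 over the arrays left out. Its call was lost with the mean of its clusters (-0.26, adjusted p = 0.167), with the minimum of 1.5-fold (-0.61, adjusted p = 1) and by the methods' t-test (-0.61, adjusted p = 0.11). The causes were not tested. No named gene with a call changed its direction under any alternative. Without 1 of the 4 arrays compared, 26 to 30 of the 287 named genes with a call lost it, and under the methods' t-test after adjustment 246 did. With the replicate number as a block, 4877 genes were called. Deviations of arrays with the same number correlated at -0.01 to 0.20 between groups, with 3 of 6 pairs of groups over 0.1. With 2 arrays per group, these values cannot tell whether the numbers pair the arrays.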
